A study of Mus musculus with 34 samples.

Results

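The loci described here were the sites at which ATF3 was the single AP-1 monomer found in macrophages after KLA and at which ATF3, Jun and JunD had no peak before it. They were chosen by the peak lists themselves: the KLA lists of ATF3, Jun, JunD, Fos, FosL2 and JunB from C57BL/6 mice were merged wherever peaks shared 1 bp or more, and a locus was kept when its single peak came from ATF3 and it overlapped no ATF3, Jun or JunD peak of the Veh lists. Of 43239 merged loci, 19462 were new in KLA by the same Veh lists, and 4478 of these were ATF3-alone loci (23.0% of the new loci). Each consisted of 1 ATF3 peak. The study profiled binding by ChIP-seq in thioglycollate-elicited peritoneal macrophages (TGEMs) of male mice, cells drawn into the peritoneal cavity by an irritant and then cultured with vehicle (Veh) or for 1 h with Kdo2 lipid A (KLA), an agonist of the receptor TLR4. Lists were used from C57BL/6 mice (labelled C57Bl/6EiJ; 17 lists: the 6 monomers, PU.1 and CEBPa in both treatments, and PPARg in Veh), from Balb/cJ mice (BALB/cJ; 9 lists: ATF3, Jun, JunD and JunB in both treatments, and Fos in KLA) and from C57Bl6-PPARgKO mice, which lack the nuclear receptor PPARg (3 lists: ATF3, Jun and JunD in Veh). Each condition had 1 list, in which the replicates had already been combined, so intervals below cover the counting of loci and hold nothing of the spread between mice, and no p-value was computed.

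AP-1 is a family of basic leucine zipper proteins that bind DNA as dimers. Jun, JunD and JunB pair with Fos, FosL2 or ATF3, and the dimers read the TPA response element (TRE) or, with 1 more base in the middle, the cyclic AMP response element (CRE). ATF3 is an immediate-early factor that TLR4 ligands and cell stress induce, and it is known as a restraint on cytokine genes. PU.1 and CEBPa are lineage factors of macrophages that open and mark much of the enhancer repertoire of the cell. All 10 macrophage marker genes inspected had a PU.1 Veh peak within 5000 bp, against 4 of 8 T cell, 4 of 6 B cell and 3 of 6 neutrophil genes and 53.7% of all protein-coding genes.

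Sequences of a few of the strongest loci show the range of sites involved. They are the central 200 bp of each ATF3 peak on the plus strand of GRCm38, and capitals mark matches to the motifs searched or to a pair of CRE-like words described further on. The first 2 are among the loci with the highest ATF3 count on assembled chromosomes, and hold no TRE. The locus in an intron of Cux1 (chr5:136458169-136458368) and that nearest Tomm20 (chr8:126849264-126849463), the latter with a CRE-like word, read:
Cux1: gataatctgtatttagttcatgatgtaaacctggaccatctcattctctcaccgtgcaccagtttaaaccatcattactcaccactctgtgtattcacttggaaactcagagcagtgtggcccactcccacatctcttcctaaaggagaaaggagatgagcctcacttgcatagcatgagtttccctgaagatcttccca
Tomm20: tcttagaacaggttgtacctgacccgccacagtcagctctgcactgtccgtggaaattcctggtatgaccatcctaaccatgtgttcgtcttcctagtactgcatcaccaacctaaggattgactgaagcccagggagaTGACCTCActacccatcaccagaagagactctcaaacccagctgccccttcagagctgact

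The strongest loci at promoters were at Ube2l6 (chr2:84799151-84799350), with overlapping IRF matches in capitals, and at Dapp1 (chr3:137980853-137981052), with a PU.1 match in capitals:
Ube2l6: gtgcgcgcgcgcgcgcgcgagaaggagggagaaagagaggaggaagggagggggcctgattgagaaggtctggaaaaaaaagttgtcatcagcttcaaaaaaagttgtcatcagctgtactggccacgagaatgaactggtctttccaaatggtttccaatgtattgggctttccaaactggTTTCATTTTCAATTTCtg
Dapp1: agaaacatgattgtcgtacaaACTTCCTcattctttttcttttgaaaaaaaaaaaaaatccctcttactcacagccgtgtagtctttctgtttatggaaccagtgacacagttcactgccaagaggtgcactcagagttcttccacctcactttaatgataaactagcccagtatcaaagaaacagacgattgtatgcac

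The strongest loci with a C/EBP-ATF composite were upstream of Itprid2 (chr2:79571600-79571799), where a TRE stood beside it, and of Ddhd1 (chr14:45684751-45684950):
Itprid2: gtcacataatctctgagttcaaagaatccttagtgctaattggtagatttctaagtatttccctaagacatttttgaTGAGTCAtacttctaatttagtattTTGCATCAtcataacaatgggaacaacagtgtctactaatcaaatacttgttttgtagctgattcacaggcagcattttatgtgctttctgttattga
Ddhd1: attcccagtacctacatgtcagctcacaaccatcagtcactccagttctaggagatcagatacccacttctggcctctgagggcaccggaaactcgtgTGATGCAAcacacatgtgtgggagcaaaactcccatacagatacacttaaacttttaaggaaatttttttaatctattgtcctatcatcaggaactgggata

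The strongest loci with a TRE were in introns of Ubtd2 (chr11:32489162-32489361), which also held a CRE-like word, and of Lpin2 (chr17:71193119-71193318):
Ubtd2: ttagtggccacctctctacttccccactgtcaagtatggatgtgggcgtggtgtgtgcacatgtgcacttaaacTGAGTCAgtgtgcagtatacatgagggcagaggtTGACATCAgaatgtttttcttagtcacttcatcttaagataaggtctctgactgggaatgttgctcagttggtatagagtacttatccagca
Lpin2: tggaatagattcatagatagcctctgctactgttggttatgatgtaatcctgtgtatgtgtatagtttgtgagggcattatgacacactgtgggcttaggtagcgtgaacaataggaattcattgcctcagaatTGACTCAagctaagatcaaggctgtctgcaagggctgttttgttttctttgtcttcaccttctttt

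ATF3-alone loci were weak ATF3 peaks. Their deposited peak counts ran from 31, the lowest count of the ATF3 KLA list, through quartiles of 37, 43 and 51 to 365, whereas the median of the whole list was 74. 139 (3.10%) had a count at or above the list median, whereas 1627 (36.3%) fell in the weakest decile. New loci at which ATF3 was joined by another monomer had a median ATF3 count of 64, and loci with ATF3 alone that already overlapped an ATF3, Jun or JunD Veh peak had one of 50. ATF3-alone loci made up 0.0269% of the loci in the decile with the highest ATF3 counts and 50.7% of those in the decile with the lowest. Because the rule used these peaks, their counts are a description. A locus without a listed peak of another monomer may still hold that monomer below the list's threshold: the lowest count in the JunD KLA list was 120, in the ATF3 KLA list 31, and these lists are not on 1 scale.

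**Figure D1:**
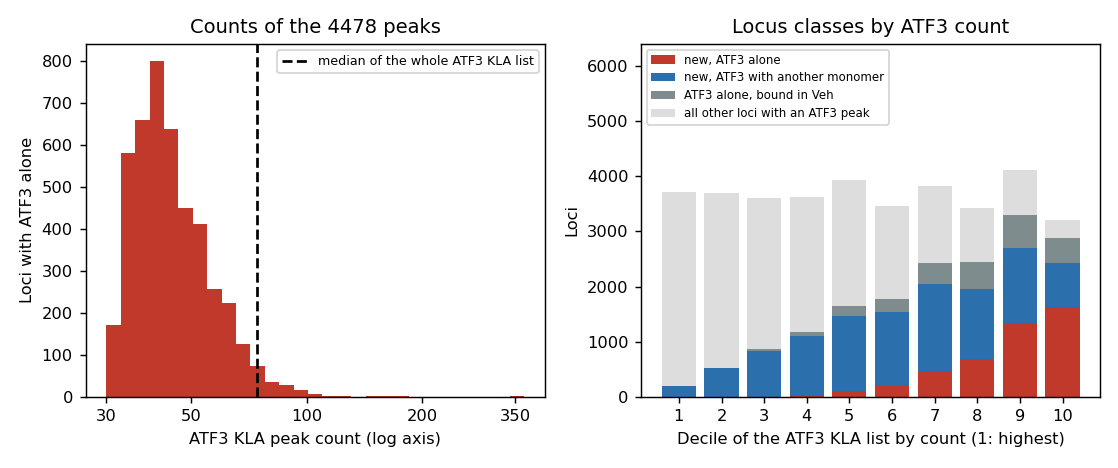
Left, histogram of the ATF3 KLA peak count (log axis) of the 4478 ATF3-alone loci, with the median of the whole list (74) dashed. Right, loci with an ATF3 KLA peak in each decile of the list by count (1 is the highest), stacked by class: ATF3-alone loci are nearly absent from the highest deciles and reach 1627 loci in the lowest.

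The strongest loci were scattered over unrelated genes. The highest count of all, 365, lay on an unplaced contig and is not followed further. On assembled chromosomes the locus in the Cux1 intron, Cux1 being a homeodomain factor, had an ATF3 count of 171 and rank 4491 of 36745 peaks. It overlapped no PU.1 or CEBPa peak in either treatment, while in BALB/cJ macrophages it held KLA peaks of ATF3 (count 90), Fos (130) and JunB (215, in a list whose highest count was 242). The Tomm20 locus (count 162, in a non-coding gene 96476 bp downstream of the start of Tomm20, a subunit of the mitochondrial import receptor) had no ATF3 peak in BALB/cJ but held Jun (52) and Fos (123) peaks there. A locus in an intron of Grb2, an adaptor of receptor tyrosine kinase signalling, at chr11:115696634-115696851 (count 153) also lacked PU.1 and CEBPa, and had BALB/cJ KLA peaks of ATF3 (65), Jun (27), JunD (60), Fos (101) and JunB (54). These 3 loci were bare of both lineage factors in C57BL/6 and carried at least 2 other AP-1 monomers in BALB/cJ.

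The Ube2l6 locus lay 423 bp downstream of the start of this gene, which encodes the conjugating enzyme for the ubiquitin-like modifier ISG15. It had an ATF3 count of 144, a PU.1 peak in KLA (53) with none in Veh, and peaks of all 5 monomers listed for BALB/cJ in KLA, with ATF3 at 65. At chr16:32111396-32111616, nearest to Cep19 (7628 bp), the count was 123 and the window held a CRE. BALB/cJ macrophages had ATF3 (89), JunD (63), Fos (71) and JunB (44) there. The locus 4361 bp upstream of Hivep2, a zinc finger protein (chr10:13961590-13961839, count 118), held no peak of the 9 BALB/cJ lists and had an ATF3 Veh peak in PPARgKO macrophages (21). BALB/cJ ATF3 was thus found at 4 of the 6 strongest placed loci.

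Among promoters, the locus 583 bp downstream of the start of Dapp1, an adaptor in B cell receptor signalling, had a count of 100, and its BALB/cJ ATF3 peaks counted 22 in Veh and 60 in KLA. The next, 435 bp upstream of Mmp28, a matrix metalloproteinase (chr11:83463376-83463636), had a count of 94 in C57BL/6 and 45 in BALB/cJ. Counts at the strongest motif-bearing loci were lower. The composite loci at Itprid2, Ddhd1 and in an intron of Rps6ka3, a kinase downstream of ERK, had ATF3 counts of 85, 81 and 78, each with an ATF3 KLA peak in BALB/cJ (31, 26 and 28). Of these 3, the Ddhd1 locus had a CEBPa peak, in KLA (59). The TRE loci at Ubtd2, Lpin2 (a phosphatidate phosphatase) and Abl2 (a tyrosine kinase) had counts of 93, 92 and 89. The Lpin2 locus had an ATF3 KLA peak in BALB/cJ (57), while the Ubtd2 and Abl2 loci had JunD (54 and 45) and Fos (73 and 54) there without ATF3.

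Most ATF3-alone loci lay away from PU.1 and CEBPa. No peak of either factor in either treatment was found at 3026 loci (67.6%, 95% Wilson interval 66.2 to 68.9), compared with 53.5% of all new loci and 45.5% of those at which ATF3 had a partner. PU.1 in KLA was found at 990 loci (22.1%, 20.9 to 23.3), where all new loci gave 36.0%. The share at partnered new loci was 42.5%, a difference of -20.4 percentage points (95% Newcombe interval -21.9 to -18.8), and at ATF3-alone loci bound in Veh it was 36.9%, a difference of -14.8 (-17.0 to -12.5). Compared inside deciles of the ATF3 count, so that weak peaks were set beside weak peaks, the differences were -15.6 (-17.4 to -13.8) and -15.8 (-18.2 to -13.5).

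The PU.1 sites differed in when they appeared. PU.1 was present in both treatments at 665 ATF3-alone loci (14.9%), in KLA but not in Veh at 325 (7.26%) and in Veh but not in KLA at 146 (3.26%). At partnered new loci the KLA-but-not-Veh pattern reached 22.7% (difference -15.4, interval -16.5 to -14.3; -9.05 inside deciles). The share with a PU.1 Veh peak was 18.1%, near the 21.2% of all new loci, against 44.5% of ATF3-alone loci bound in Veh. At the loci it shared with ATF3, PU.1 was of middling strength, with a median count of 54 against 62 over the PU.1 KLA list.

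CEBPa was rarer still. Its KLA peaks overlapped 391 loci (8.73%, 7.94 to 9.59), against 15.4% of all new loci, 21.9% of partnered new loci (difference -13.2, -14.3 to -12.0) and 23.7% of ATF3-alone loci bound in Veh (difference -15.0, -16.9 to -13.1). Inside deciles of the ATF3 count the first of these shrank to -5.44 (-6.72 to -4.17) and the second was -13.6 (-15.5 to -11.6). New loci with JunD alone had a like CEBPa share in KLA, 8.09% (difference 0.638, -0.977 to 2.13). Before KLA, CEBPa was at 230 loci (5.14%), with 4.63% for all new loci and 4.83% for partnered ones, and the difference from the latter had an interval that included 0 (-0.439 to 1.10). CEBPa had a peak in KLA but not in Veh at 232 loci (5.18%), where all new loci gave 11.8%. Partnered loci had 17.8% (difference -12.6, -13.5 to -11.6, and -5.31 inside deciles). New loci with JunD alone had 5.34%. Both PU.1 and CEBPa were present in KLA at 98 loci (2.19%), against 7.31% of all new loci and 11.4% of partnered loci. New loci with JunD alone had both at 3.24%. PPARg in Veh was found at 574 loci (12.8%, all new loci 17.8%), 18.4% of partnered loci and 40.4% of ATF3-alone loci bound in Veh.

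**Figure D2:**
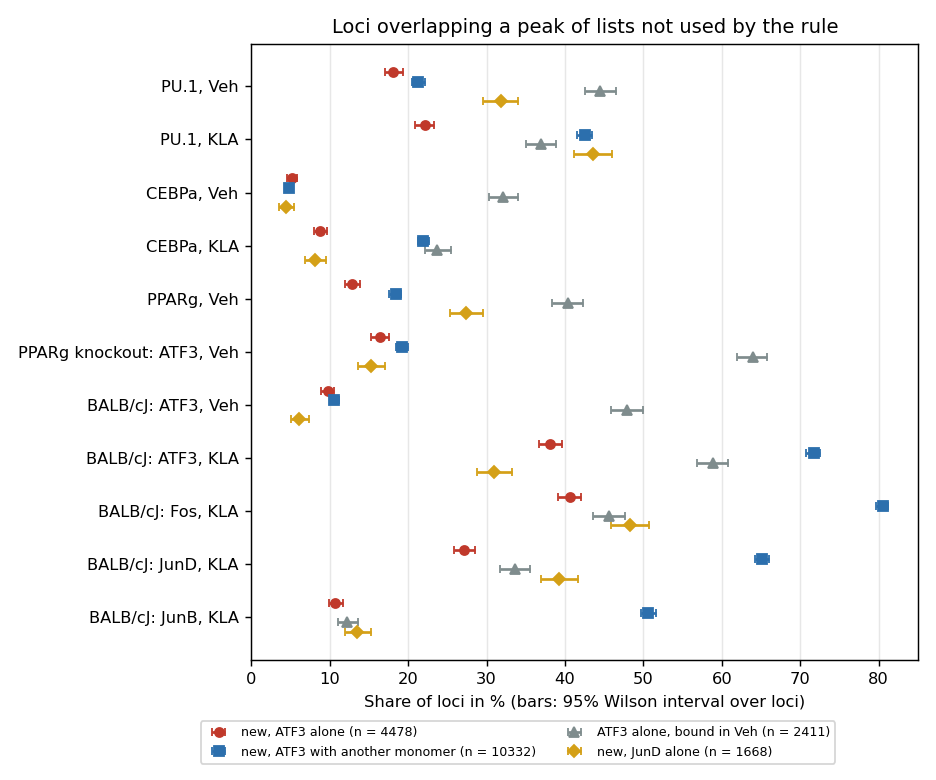
Share of loci (x axis, %) overlapping a peak in lists that the rule did not use, for 4 classes of loci, with 95% Wilson intervals over loci as bars. ATF3-alone loci (red) have the lowest PU.1 KLA share, 22.1%, and lie below partnered new loci (blue) in every KLA list shown.

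In BALB/cJ macrophages the same positions held AP-1 less often than other new loci did, and ATF3 without another monomer more often. An ATF3 KLA peak of BALB/cJ overlapped 1707 loci (38.1%, 36.7 to 39.6), where all new loci gave 54.7% and partnered new loci 71.7%, a difference of -33.6 percentage points (-35.2 to -31.9). At like ATF3 count the difference was -14.1 (-16.1 to -12.2). New loci with JunD alone, which by definition had no C57BL/6 ATF3 peak in KLA, had BALB/cJ ATF3 at 30.9% (difference 7.18, 4.52 to 9.79). ATF3-alone loci found again in BALB/cJ had a median C57BL/6 count of 47 against 41 for the others. Fos in BALB/cJ overlapped more of the loci than ATF3 did, 1816 (40.6%), with 63.8% for all new loci; JunD overlapped 27.1%, JunB 10.7% and Jun 3.33%, against 49.7%, 32.9% and 11.8% of all new loci.

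Of the 1707 loci with BALB/cJ ATF3 in KLA, 1228 (27.4% of all ATF3-alone loci) also held another monomer and 479 (10.7%) did not, where all new loci gave 49.9% and 4.8%. ATF3 without another monomer was at 2.54% of partnered new loci (difference 8.16, interval 7.23 to 9.14, and 7.33 inside deciles). ATF3-alone loci bound in Veh had it more often, at 16.3% (difference -5.65, -7.41 to -3.94). Another monomer without ATF3 was found at 1100 loci (24.6%), near the 23.8% of all new loci, and 1671 (37.3%) held no KLA peak of the 5 monomers, against 21.5%. Together, 2328 of the C57BL/6 ATF3-alone loci (52.0%, 50.5 to 53.4) had Fos, JunD, JunB or Jun in BALB/cJ in KLA, below the 73.7% of all new loci and the 87.8% of partnered ones (difference from the latter -35.8, -37.4 to -34.2; -25.3 inside deciles). The whole pattern, new and ATF3 alone by the BALB/cJ lists, recurred at 346 loci (7.73%, 6.98 to 8.55), against 3.66% of all new loci and 2.05% of partnered new loci (difference 5.67, interval 4.87 to 6.53; 4.70 inside deciles). FosL2 in BALB/cJ was not analysed here, and the BALB/cJ lists come from other libraries aligned to another genome, whose part in these shares was not tested.

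Veh lists of BALB/cJ and PPARgKO macrophages overlapped a minority of ATF3-alone loci. ATF3, Jun or JunD had a BALB/cJ Veh peak at 915 loci (20.4%), against 23.1% of all new loci. JunD was at 15.2%, ATF3 at 9.74% and Jun at 2.32%, against 18.9%, 9.07% and 3.01%. None overlapped the BALB/cJ JunB Veh list, which held 9 peaks. In PPARgKO macrophages, ATF3 in Veh overlapped 733 loci (16.4%, 15.3 to 17.5), close to the 16.8% of all new loci and below the 64.0% of ATF3-alone loci bound in C57BL/6 Veh. JunD of PPARgKO overlapped 6.48% and Jun 0.357%, against 8.88% and 0.462% of all new loci. C57BL/6 Veh peaks of Fos, FosL2 or JunB, which the rule did not use, overlapped 41 loci (0.916%), against 2.31% of all new loci. No PPARgKO list of KLA was analysed here.

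**Figure D3:**
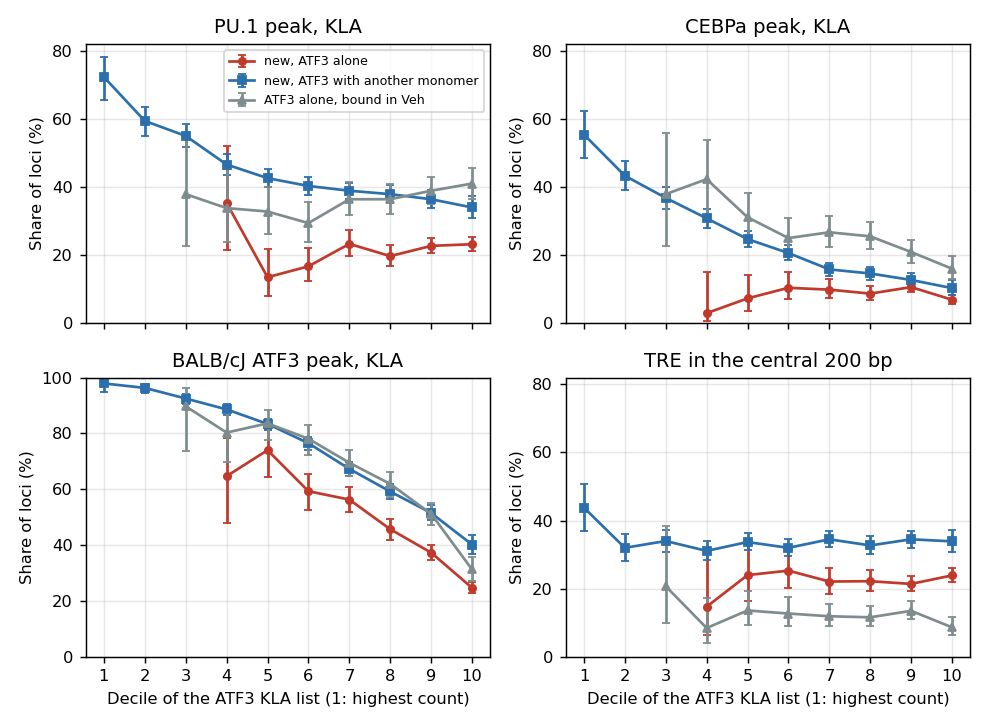
Shares of loci (y axis, %) with a PU.1 KLA peak, a CEBPa KLA peak, a BALB/cJ ATF3 KLA peak or a TRE, by decile of the ATF3 KLA list (1 is the highest count), with 95% Wilson intervals over loci and at least 20 loci a point. ATF3-alone loci (red) stay below partnered new loci (blue) in PU.1, CEBPa and BALB/cJ ATF3 in the weak deciles that hold most of them. The BALB/cJ share climbs from decile 10 to decile 5 in all 3 classes. From decile 5 to decile 4 it falls at ATF3-alone loci (74.0% to 64.7%) and at those bound in Veh (83.6% to 80.3%).

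The sequence under the peaks differed between ATF3-alone and partnered new loci. The TRE (searched as TGACTCA on both strands of the central 200 bp) was present at 1015 of 4477 loci with sequence (22.7%, 21.5 to 23.9), where all new loci gave 29.8% and windows of the same length 1000 bp to either side of the same loci 3.63%. Partnered new loci held it more often, at 33.5% (difference -10.8, interval -12.3 to -9.26; -11.2 inside deciles), and ATF3-alone loci bound in Veh less often, at 11.8% (difference 10.9, 9.09 to 12.6). The CRE (TGACGTCA) was at 2.39% of ATF3-alone loci, 13.4 times its flank share of 0.179%, and at 0.649% of partnered loci (difference 1.74, 1.30 to 2.25). All new loci had the CRE at 1.0%. ATF3-alone loci bound in Veh held the CRE at 3.15%, and the interval of that difference included 0 (-0.762, -1.64 to 0.0329). The C/EBP-ATF composite (TGATGCAA), a joint site for C/EBP and ATF factors, was at 2.19%, with 1.26% for all new loci and 1.24% for partnered loci (difference 0.95, 0.497 to 1.46; 1.36 inside deciles), whereas ATF3-alone loci bound in Veh had 9.29%. In gene promoters (the 200 bp before each RefSeq start of GRCm38.p6), the TRE, CRE and composite were at 3.66%, 1.47% and 0.639%.

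Of the other 7 motifs, NF-kB differed most from partnered loci. NF-kB motifs, searched by their consensus, were at 5.27% of ATF3-alone loci, 11.5% of partnered loci and 1.04% of ATF3-alone loci bound in Veh, a difference of -6.22 points from the former (-7.10 to -5.30; -3.47 inside deciles) and 4.23 from the latter (3.45 to 5.00). Over all new loci the NF-kB share was 9.37%. PU.1 (AGGAAGT, 14.7%), C/EBP (TTGCNNAA, 14.0%), IRF (by consensus, 9.67%), Runx (TGTGGTT, 6.43%), Sp1 (GGGCGGG, 3.24%) and the E-box (TCACGTG, 2.01%) were above their flank shares of 5.07%, 8.92%, 4.63%, 5.10%, 2.26% and 0.759%. With intervals widened for the 10 motifs, 4 differences from partnered loci (TRE, CRE, composite and NF-kB) and 7 from ATF3-alone loci bound in Veh still left out 0. The composite and C/EBP motifs share letters and are not independent, although, as searched, no single stretch of their length can match both.

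The commonest 8-base words over the flanks were then counted without a list. At ATF3-alone loci the leading word was TGACATCA, a CRE with 1 base changed, at 450 loci (10.1%, flanks 0.960%), followed by TREs with their neighbouring bases and by TGACCTCA (6.19%, flanks 1.08%). All new loci had TGACATCA at 5.01% and TGACCTCA at 3.85%. The TRE is shorter than 8 bases, so it was split into several words by its neighbouring base. As 1 motif it was at 22.7%, above TGACATCA. At partnered new loci the 6 leading words were all TREs, and TGACATCA and TGACCTCA were at 4.56% and 3.78%. At ATF3-alone loci bound in Veh the leading word was the composite (9.29%), with TGACATCA at 7.51% and TGACCTCA at 5.64%. New loci with JunD alone had TGACATCA at 1.56%. The words were singled out after their shares were seen, so these shares are a description. A TRE, CRE, composite or either word was present at 39.5% of ATF3-alone loci, near the 38.5% of all new loci, and at 41.2% of partnered loci.

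**Figure D4:**
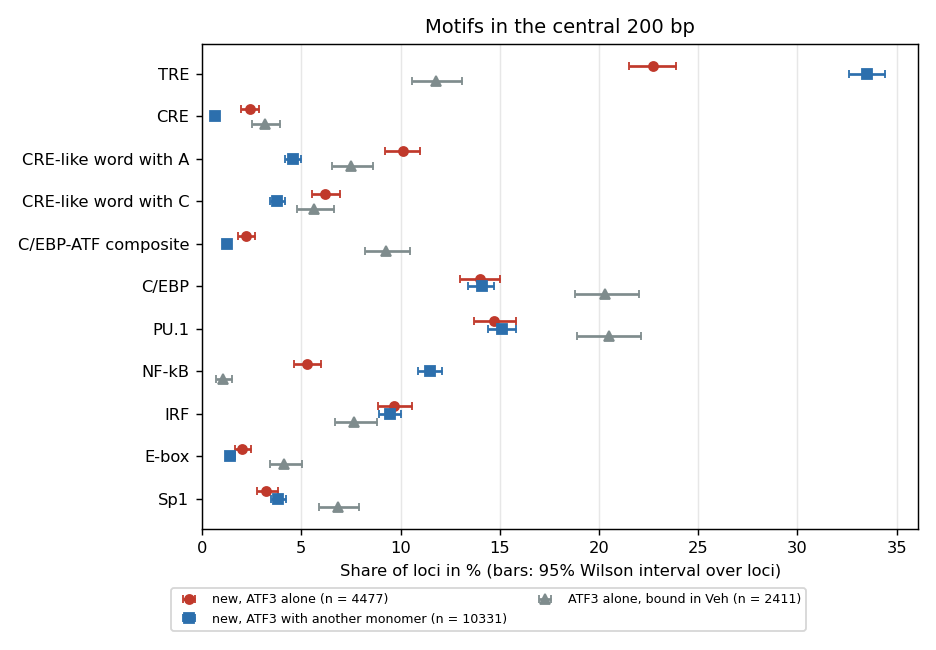
Share of loci (x axis, %) with each motif or word in the central 200 bp, with 95% Wilson intervals over loci; the CRE-like words differ from the CRE in 1 base. TRE and NF-kB are lower at ATF3-alone loci (red) than at partnered new loci (blue), and the CRE, both CRE-like words and the composite are higher.

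TREs were close to the peak centres. The 1112 TRE matches within 100 bp lay at a median distance of 23.5 bp, and 913 of them (82.1%) lay within 50 bp. The same held for 73.8% of composites, 61.2% of NF-kB and 59.4% of PU.1 matches. The profile of motif position shows a peak for the TRE and a broader rise for PU.1.

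**Figure D5:**
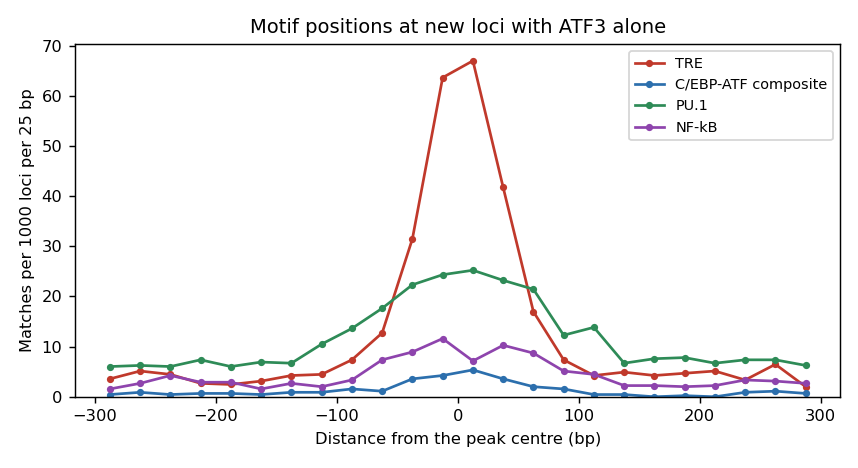
Matches per 1000 ATF3-alone loci in 25 bp bins (y axis) against distance from the ATF3 peak centre in bp (x axis). TRE matches pile up at the centre, where 913 of the 1112 within 100 bp lie within 50 bp.

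The kind of site went with the kind of neighbour. Loci with a TRE had PU.1 in KLA at 7.0% and loci without one at 26.5% (difference -19.5 points, -21.6 to -17.3), and 87.2% of them held neither PU.1 nor CEBPa in either treatment. Loci with TGACATCA had PU.1 at 8.22% (23.6% without, difference -15.4, -18.0 to -12.2) and CEBPa in KLA at 2.67% (9.41% without). Loci with a PU.1 motif had a PU.1 KLA peak at 47.5% against 17.7% without (difference 29.8, 25.8 to 33.8). Of the 98 composite loci, 20 (20.4%) had CEBPa in KLA, against 8.47% of the rest (difference 11.9, 5.09 to 21), and 38.8% had a PPARgKO ATF3 Veh peak, against 15.8% (difference 22.9, 13.8 to 32.9).

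The sites also differed in what BALB/cJ macrophages held. A CRE went with BALB/cJ ATF3 in KLA at 70 of 107 loci (65.4%, 37.5% without; difference 28.0, 18.4 to 36.4), and TGACATCA at 229 of 450 (50.9%, 36.7% without; difference 14.2, 9.34 to 19.0). A TRE did not separate loci by BALB/cJ ATF3 (38.3% with and 38.1% without, difference 0.255, -3.11 to 3.68). For BALB/cJ Fos the order was turned: TRE loci had it at 49.3% against 38.0% without (difference 11.2, 7.78 to 14.7) and TGACATCA loci at 31.8% against 41.5% (difference -9.77, -14.2 to -5.08). BALB/cJ ATF3 without another monomer was at 18.9% of TGACATCA loci and 9.78% of the rest.

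ATF3-alone loci were mostly distal. The peak centre was within 1000 bp of the start of a protein-coding gene at 509 loci (11.4%, 10.5 to 12.3), with 13.0% for all new loci. Partnered new loci had 10.4%, and the difference had an interval that included 0 (1.00 point, -0.0795 to 2.12; -1.09, -2.38 to 0.191 inside deciles). The share was 17.3% at ATF3-alone loci bound in Veh and 25.2% at new loci with JunD alone, the latter a difference of -13.9 (-16.2 to -11.6). Otherwise 2186 loci (48.8%) lay in introns, 1363 (30.4%) between genes, 292 (6.52%) in non-coding genes, 69 (1.54%) in UTRs and 59 (1.32%) in coding exons, and the median distance to the nearest start was 18716 bp. The median share of G and C in the window was 44.5%, against 46.5% at partnered loci.

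Promoter loci differed from the rest in sequence. They held a TRE at 10.0% against 24.3% (difference -14.3, -17.0 to -11.1), an Sp1 motif at 14.9% against 1.74% and an E-box at 4.72% against 1.66%. Of the 107 loci with a CRE, 38 (35.5%) were at promoters, against 10.8% of loci without one. PU.1 in KLA was at 32.8% of promoter loci and 20.7% of others (difference 12.1, 7.93 to 16.4), and BALB/cJ ATF3 in KLA at 47.7% and 36.9% (difference 10.9, 6.29 to 15.4).

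Most loci had another AP-1 peak within 10000 bp. A KLA peak of another monomer lay that near to 61.7% of loci, and an ATF3, Jun or JunD Veh peak to 55.9%. The median gap to the nearest KLA peak of another monomer was 5462 bp, and 585 loci (13.1%) had one within 500 bp. These gaps were not compared with those of other loci. At the threshold of the rule, 84 loci lay within 100 bp of such a peak without touching it, the closest at 3 bp, and had a median ATF3 count of 49. Just on the other side, 25 new loci whose ATF3 peak shared 23 to 100 bp with another monomer's peak had a median of 42. A further 57 loci lay within 100 bp of an ATF3, Jun or JunD Veh peak, the closest at 5 bp, with a median count of 45.

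The nearest protein-coding gene starts belonged to 3180 genes, 14.6% of all 21840, and 2342 of these genes had 1 locus. Partnered new loci reached 21.9% of all genes. Gene lists were counted with no test, and genes alone in a wide region collect more loci, which was not accounted for. Of 22 macrophage lineage factors, 13 (59.1%; 19 had a partnered locus) were nearest to an ATF3-alone locus, among them Cebpa, Irf8, Runx1, Mitf, Pparg and Zeb2. Zeb2, a repressor that maintains myeloid identity, had 14 such loci of its 60 new loci, more than any other gene. Cited2, a transcriptional co-regulator, and Lpp, a focal adhesion protein, followed with 10 each, of 31 and 44 new loci. These 3 genes were picked after their counts were seen. Of all new loci 23.0% were ATF3-alone loci, a share that Zeb2 and Lpp were near and Cited2 was above. The strongest lineage-factor locus, in a Mitf intron (chr6:97883685-97883897, count 72), had a TRE and a BALB/cJ ATF3 peak (37).

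Of 25 MAPK phosphatases and feedback genes, 14 (56.0%) had an ATF3-alone locus, among them the phosphatases Dusp1, Dusp4, Dusp5 and Dusp6 and the receptor kinase inhibitors Spry1 and Spry2, and 23 had a partnered one. The strongest, at chr14:105638159-105638405, 258537 bp from Spry2 in a non-coding gene, had an ATF3 count of 113, CEBPa in KLA (88) and BALB/cJ ATF3 (47). Of 20 NF-kB pathway genes 10 (50.0%) had one and 16 a partnered one. The 10 included the subunits Nfkb1, Nfkb2 and Rel and the inhibitors Nfkbia, Nfkbib and Tnfaip3. Tnfaip3, a ubiquitin-editing brake on NF-kB, had 7 such loci of 43 new ones, a share below the 23.0% of all new loci. Its strongest (chr10:19108173-19108376, count 64) lay 92864 bp upstream and held all 5 BALB/cJ monomers in KLA, with ATF3 at 47. Of 22 AP-1 and immediate-early factors 10 (45.5%) had one, Atf3, Jun, Fos and Fosl2 among them, and 20 had a partnered one. The strongest ATF3-alone locus of these factors, in a UTR of Maff (count 68), overlapped no peak of the BALB/cJ or PPARgKO lists looked up for it.

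All 20 TLR4 cytokine genes were nearest to a partnered new locus and 6 (30.0%) to an ATF3-alone locus: Il6, Il10, Il12b, Il12a, Csf2 and Tnfsf15. The strongest, in a Tnfsf15 intron (chr4:63738994-63739206, count 64), held a composite and a BALB/cJ ATF3 peak (25) with no other listed monomer. Of 19 chemokine genes 2 (10.5%), Ccl5 and Cxcl5, had an ATF3-alone locus, near the 14.6% of all genes, and 14 a partnered one. The Cxcl5 locus was weak (count 41) and held a TRE, with no peak of the 9 BALB/cJ lists.

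The remaining lists lay between. Of 22 lipid and cholesterol genes 9 (40.9%) had an ATF3-alone locus, the strongest between genes 42337 bp from Lpl, lipoprotein lipase (count 64), with no peak in the other lists looked up. Of 24 interferon response genes 8 (33.3%) did, and the strongest, in an intron of the ubiquitin ligase Trim25 (chr11:89005710-89006008, count 69), had BALB/cJ ATF3 at 46 in Veh and 42 in KLA and ATF3 (21) and JunD (29) in PPARgKO. Of 24 actin and adhesion genes 8 (33.3%) did, the strongest 1280 bp upstream of Msn, which links actin to the membrane (count 68). Of 20 TLR4 receptor and adaptor genes 5 (25.0%) did, the strongest in an intron of Irak3, an inhibitory kinase of the pathway (count 56). Of 26 integrated stress response genes 5 (19.2%) did, near the 14.6% of all genes. These were Ddit3, Chac1, Slc7a11, Slc7a1 and Vegfa, with the strongest locus 37933 bp from Vegfa, the vascular growth factor (count 70). Partnered new loci were nearest to 12 of the lipid, 19 of the interferon, 18 of the actin, 10 of the TLR4 receptor and 10 of the stress response genes.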

How the data were processed

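ChIP-seq was done on TGEMs with antibodies against AP-1 monomers and lineage factors. Bowtie2 alignment by the authors used mm10 for C57BL/6 and, for BALB/cJ, a strain genome whose positions were moved to mm10; HOMER then called peaks against input, and replicates were combined by irreproducible discovery rate (IDR). Of the 34 samples, 4 were input without a list, and 1 of 30 deposited lists was empty. Each deposited list gives position, a peak count (the lowest was 31 for ATF3 in KLA; how replicates entered it is not given in the sources used here) and a scaled IDR score per the file headers. Counts were used for ranks within a list and the depth of each library is unknown here.

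From these, loci were merged and classed (1 bp overlap), and other lists were compared with the ATF3 peak interval. The files' build mm10 equals GRCm38, whose sequence (RefSeq) and GENCODE M21 basic genes were used; the peaks of all 21 assembled chromosomes ended within its chromosome lengths. Shares have 95% Wilson intervals, differences Newcombe intervals, and differences inside 10 deciles of the ATF3 count the Mantel-Haenszel estimate (numpy 2.4.6, pandas 2.3.3). Overlap, merging and interval code was tested on simulated data. Loci, motifs and gene lists were chosen with earlier results of these data known. Named loci were, by ATF3 count on assembled chromosomes, the 6 highest, the 3 highest at promoters, without PU.1 and CEBPa, with a composite and with a TRE, and the highest per gene list. Alternatives were centres within 100 bp, peaks at or above the median count of each list, scores of 830 or more, no other peak within 500 bp, all 6 Veh lists, deciles of ATF3 count, 100 bp motif windows, all annotated genes and 3000 bp promoters.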

Additional observations from a re-analysis of the deposited data

How the results depend on the processing

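The number of loci went from 4478 to 2132 when peaks below the median count of each list were dropped. It was 4785 with centres within 100 bp, 3964 with scores of 830 or more, 3779 with no other peak within 500 bp and 4437 with all 6 Veh lists. Loci were classed anew after each filter, so some became ATF3-alone loci because peaks of other lists had been dropped. Of the 4478 loci, 139 had a count at or above the list median, so most of the 2132 were other loci. A score of 830 or more was held by 31.4% of the 4478, so most of the 3964 were other loci too. The promoter difference from partnered loci, 1.00 point with an interval that included 0, reached 1.57 (0.494 to 2.69) with centres within 100 bp and 1.32 (0.167 to 2.51) with scores of 830 or more, intervals that left out 0. It was -0.416 with no other peak within 500 bp and -1.09 inside deciles of the ATF3 count, so it has no settled direction; the cause was not tested. The differences in PU.1, CEBPa, TRE, composite and BALB/cJ ATF3 kept their sign and an interval without 0 under each alternative run on them. Under the filters on count and score, most of the loci compared were not among the 4478. The widest range in points was that of BALB/cJ ATF3 against partnered loci, between -33.7 and -14.1, and CEBPa against partnered loci ranged from -13.3 to -5.44; the smaller value of each was inside deciles. No paired analysis was possible because each condition has 1 list and no replicate columns. For the same reason no replicate could be left out. Presence in a list depends on the threshold and depth of that list, so a missing peak is not a missing protein.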
